A study of Homo sapiens with 4 samples.

Results

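The 10 genes described here encode the enzymes that make, lengthen, desaturate and activate long-chain fatty acids, together with their transcriptional regulator SREBF1. They were taken by symbol from the authors' deposited table of 57773 genes, and all 10 were found there once. The samples were the established human multiple myeloma lines KMS12PE and KMS11, which derive from malignant plasma cells. Cells were treated with 1 µM OSSL_325096, a compound identified only by that code name (2 libraries, 1 from each line), or with the solvent DMSO (2 libraries, 1 from each line). How long the treatment lasted is not stated in the labels. RNA was sequenced, and the data are the authors' comparison of OSSL_325096 over DMSO across both lines. Its columns give a p-value, a log2 fold change and an RPKM, a read count divided by transcript length and library size. The RPKM is a mean over the libraries of whichever treatment had more. No single-library values were analysed, so neither the spread within a treatment nor each line's own change can be given. Which treatment a positive fold change favours was read from the order in the table's title; no column states it. With the opposite order every sign below would turn, and FASN, for example, would be at 0.428 of its DMSO level.

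Fatty acids are built in the cytosol from acetyl-CoA, which is carboxylated to malonyl-CoA and then polymerised by fatty acid synthase into palmitate. Palmitate is lengthened and desaturated at the endoplasmic reticulum and joined to coenzyme A before it enters phospholipids and triglycerides. SREBP1, the product of SREBF1, is held in the endoplasmic reticulum membrane by SCAP and INSIG proteins when sterols are plentiful. After transport and cleavage it activates many of these genes, while the related SREBP2 mainly serves cholesterol synthesis. Plasma cells carry an extensive endoplasmic reticulum, whose membranes are made of such lipids.

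All 9 plasma cell markers were measured, between 6.26 and 189 RPKM. Of these 9, 2 had a log2 fold change above 0 and the values ran from -0.73 to 0.60. No adipocyte marker exceeded 0.0197 RPKM, no fibroblast marker 0.0387, no myeloid marker 0.0913 and no B cell marker 0.956. Among epithelial markers EPCAM was at 15.8 RPKM, but KRT8 was at 0.0425 and KRT19 at 0.0389 in the authors' deposited table. Among T cell markers CD8A was at 1.02 RPKM, CD3E at 0.0959 and CD3D at 0 in that table. In bulk RNA, fewer cells of a type and less RNA per cell cannot be told apart. Comparisons below use the 11324 genes listed at 1 RPKM or more. All 10 fatty acid genes passed this filter, from 3.07 RPKM for ELOVL6 to 113 RPKM for SCD, with a median of 12.7 against 6.76 over all genes that passed.

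The largest value among the 10 genes was that of FASN, with a 2.33-fold higher level with OSSL_325096 in the authors' deposited table. ACACA, SCD, FADS2, ACSS2, ACLY, SREBF1 and FADS1 lay between 1.07-fold and 1.38-fold higher, and ELOVL6 and ACSL3 were 1.09-fold and 1.19-fold lower. In all, 8 of 10 fatty acid genes had a log2 fold change above 0, against 51.0% of the 11324 genes. FASN was the only one at least 1.5-fold higher (1 of 10, against 4.95% of all genes), and 0 of 10 were at least 1.5-fold lower (4.95% of all genes). The median log2 fold change was 0.25, against 0.01 over all genes and 0.04 over the 8070 genes in the same range of RPKM. Without FASN the median of the other 9 was 0.20. None of the 10 genes passed a test. By the authors' own test, made in Biomedical Genomics Workbench, 0 of 10 had an unadjusted p under 0.05 (0.0442% of all genes did) and 0 of 10 an adjusted p under 0.05 (0% of all genes). The Benjamini-Hochberg adjusted p, recomputed over the 11324 genes from those p-values, was 0.999909 for each of the 10.

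**Figure D1:**
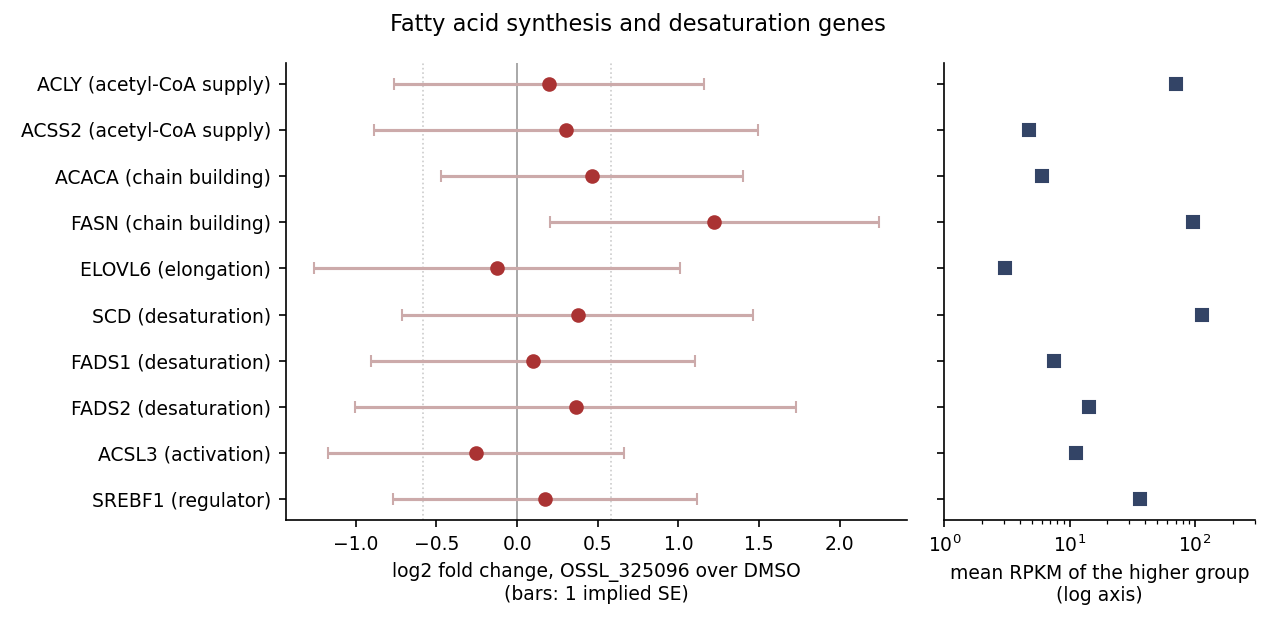
Log2 fold change of OSSL_325096 over DMSO (left, with bars of 1 implied SE, dotted lines mark 1.5-fold) and RPKM averaged over the treatment with more (right, log axis) for the 10 genes, ordered along the pathway. FASN, at 1.22, is the only gene past 1.5-fold, and ACSL3, at -0.25, is the lowest.

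Acetyl-CoA for the pathway comes from citrate or from acetate. ACLY, ATP citrate lyase, splits citrate in the cytosol (ENSG00000131473, chromosome 17, 40023161 to 40086795, hg19). It was among the most abundant of the 10, at 71.1 RPKM, and the authors' deposited table put its log2 fold change at 0.20 (p = 0.837). ACSS2, which activates acetate (ENSG00000131069, chromosome 20, 33459949 to 33515769), was far less abundant, at 4.76 RPKM, and the authors' deposited table put it at 0.30 (p = 0.799). The values of ACLY and ACSS2 differed by 0.10 on the log2 scale. An error for each log2 fold change was derived as the value divided by the normal quantile of its p, here called the implied SE. It holds exactly only for a normal test on the log2 scale, and the test used is not stated. It was 0.96 for ACLY and 1.19 for ACSS2, several times the fold change in each gene.

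The chain-building enzymes stood highest. ACACA encodes acetyl-CoA carboxylase 1, which makes malonyl-CoA in the rate-limiting step (ENSG00000132142, chromosome 17, 35441923 to 35766909). It was expressed at 5.99 RPKM, and its log2 fold change, 0.46 by the authors' deposited table (implied SE 0.94, p = 0.620), was above 91.6% of the 11324 genes. FASN, the multifunctional fatty acid synthase (ENSG00000169710, chromosome 17, 80036214 to 80056208), was expressed at 95.7 RPKM with a log2 fold change, by the authors' deposited table, of 1.22 (implied SE 1.02, p = 0.229). It ranked 61st from the top of the 11324 genes by log2 fold change. Under the same normal assumption the 95% interval of the FASN ratio ran from 0.586-fold to 9.30-fold, and with that implied SE only a 3.98-fold difference would have given an unadjusted p of 0.05. ACACA, acting just before FASN, was 0.76 lower than FASN on the log2 scale. No test of that difference can be made without values of single libraries.

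ELOVL6, the elongase that extends palmitate to stearate, was the least abundant at 3.07 RPKM (ENSG00000170522, chromosome 4, 110967002 to 111120355). The authors' deposited table put its log2 fold change at -0.12 (implied SE 1.13, p = 0.912). SCD, stearoyl-CoA desaturase, converts stearate and palmitate to monounsaturated acids (ENSG00000099194, chromosome 10, 102106881 to 102124591). It was the most abundant of the 10 at 113 RPKM, and the authors' deposited table put its log2 fold change at 0.37 (implied SE 1.09, p = 0.731). A pseudogene named SCDP1 was listed at 0 RPKM in that table, as counted by the authors. The steps at either side of stearate thus had values of opposite sign, each smaller than its implied SE.

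FADS1 and FADS2 encode the delta-5 and delta-6 desaturases of polyunsaturated fatty acid synthesis. FADS2 (ENSG00000134824, chromosome 11, 61560452 to 61634826, plus strand) was expressed at 14.2 RPKM and put at 0.36 by the authors' deposited table (log2 fold change, implied SE 1.37, p = 0.791). Its implied SE was the largest of the 10. FADS1 (ENSG00000149485, chromosome 11, 61567099 to 61596790, minus strand) was expressed at 7.47 RPKM and put at 0.10 by the authors' deposited table (log2 fold change, implied SE 1.01, p = 0.923). In the table's annotation all 29692 bases of FADS1 lie inside the FADS2 region on the other strand. These regions span whole genes, introns included, and the bases shared by exons were not computed. Whether the counting used strand is not stated, so how far FADS1 and FADS2 were measured separately is not known.

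ACSL3, a long-chain acyl-CoA synthetase of the endoplasmic reticulum and lipid droplets, joins fatty acids to coenzyme A (ENSG00000123983, chromosome 2, 223725652 to 223809357). Expressed at 11.2 RPKM, it had the lowest log2 fold change of the 10, -0.25 by the authors' deposited table (implied SE 0.92, p = 0.782). SREBF1, the regulator (ENSG00000072310, chromosome 17, 17713713 to 17740325), was expressed at 36.4 RPKM, with a log2 fold change by the authors' deposited table of 0.18 (implied SE 0.94, p = 0.852). The mRNA of SREBF1 gives no measure of how much SREBP1 protein is cleaved. The 95% intervals of all 10 genes, from implied SEs of 0.92 to 1.37, included 0, so that neither a change nor its absence was shown for any of them. The median implied SE over all genes was 1.10, and that of the cyclin gene CCND1, which marks KMS12PE, was 1.83. MAF, which marks KMS11, had an implied SE of 1.94. Among the remaining line markers, FGFR3 had a larger implied SE than MAF. That of WHSC1 was 1.04, below the median over all genes, so a large error was not common to all line markers. The log2 fold changes of all 4 line markers lay between 0.05 and 0.39.

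The 250 bases before the gene start were taken from RefSeq (GRCh38.p14) to show what lies upstream of genes whose values differed in sign and size. RefSeq windows were matched for ACACA, ACLY, SCD, FADS1, FADS2, ELOVL6, SREBF1, ACSL3 and ACSS2, 14 windows for 9 genes because several have more than 1 start; FASN was not matched. Of the 14 windows, 13 had exactly 1 match in GRCh37, and positions are given on that build. Shown are SCD, the most abundant gene, SREBF1, the regulator, ACSL3, the lowest, and the overlapping genes FADS1 and FADS2, each from 5′ to 3′ along its own strand. Capitals mark CCAAT boxes (CCAAT, bound by NF-Y) and GC boxes (GGGCGG, bound by Sp1 factors), on either strand; adjoining boxes run together.
SCD, chr10:102106740-102106989, plus strand: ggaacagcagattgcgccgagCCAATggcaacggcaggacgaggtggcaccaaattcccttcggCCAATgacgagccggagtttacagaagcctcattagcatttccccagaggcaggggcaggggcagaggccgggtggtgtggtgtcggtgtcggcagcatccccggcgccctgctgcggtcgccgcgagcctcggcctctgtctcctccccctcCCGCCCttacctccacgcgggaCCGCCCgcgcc
SREBF1, chr17:17740301-17740550, minus strand: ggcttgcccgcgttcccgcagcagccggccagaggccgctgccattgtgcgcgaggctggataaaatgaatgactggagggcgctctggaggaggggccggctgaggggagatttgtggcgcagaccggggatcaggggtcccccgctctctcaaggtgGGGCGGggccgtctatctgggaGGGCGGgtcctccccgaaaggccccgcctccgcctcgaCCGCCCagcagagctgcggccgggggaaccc
ACSL3, chr2:223725504-223725753, plus strand: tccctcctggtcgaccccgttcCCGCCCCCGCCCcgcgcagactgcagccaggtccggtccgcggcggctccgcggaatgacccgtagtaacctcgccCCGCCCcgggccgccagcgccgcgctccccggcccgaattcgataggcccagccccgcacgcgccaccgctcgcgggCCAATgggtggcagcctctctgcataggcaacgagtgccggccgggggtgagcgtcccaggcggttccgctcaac
FADS1, chr11:61584476-61584725, minus strand: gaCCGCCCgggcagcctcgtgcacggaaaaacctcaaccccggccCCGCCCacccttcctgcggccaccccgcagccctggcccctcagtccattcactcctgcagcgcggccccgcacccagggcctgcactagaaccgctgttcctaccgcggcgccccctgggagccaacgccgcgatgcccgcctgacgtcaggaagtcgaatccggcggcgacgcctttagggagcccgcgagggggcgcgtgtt
FADS2 (its first start in RefSeq), chr11:61583425-61583674, plus strand: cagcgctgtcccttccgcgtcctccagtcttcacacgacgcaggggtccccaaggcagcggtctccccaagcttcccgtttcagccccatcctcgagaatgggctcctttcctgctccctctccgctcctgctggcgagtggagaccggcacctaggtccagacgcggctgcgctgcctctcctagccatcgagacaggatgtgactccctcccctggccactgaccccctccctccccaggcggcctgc

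NF-Y and Sp1 are known partners of SREBP proteins at lipid gene promoters. SCD had a pair of CCAAT boxes, at 229 to 225 and 186 to 182 bases before its start, and GC boxes nearer to it. ACSL3 had a CCAAT box at 75 to 71 bases before its start, SREBF1 had 3 GC boxes and no CCAAT box, and the FADS2 window shown had neither. The FADS1 start lay 800 bases beyond this FADS2 start, inside the FADS2 region. Over all windows, 5 of 9 fatty acid genes had a CCAAT box, against 10102 of the 27305 genes with a RefSeq window and 42.4% of the 8007 matched genes of at least 1 RPKM. In the sterol synthesis list it was 13 of 15 genes, and in the fatty acid oxidation list 3 of 14. A GC box was found in 9 of 9 fatty acid genes, against 46.2% of all genes and 76.3% of those 8007. The SREBP core sequence TCACNCCAC, with N any base, and the palindromic E-box CACGTG were found in 0 of the 9 (1.09% and 7.73% of all genes). These letters being absent from the windows says nothing of SREBP binding. Genes of at least 1 RPKM with a CCAAT box had a median log2 fold change of 0.02, against 0.01 for those without.

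The other genes of fatty acid metabolism are given by list, as deposited; the effect of GC content on these lists is given with that of the 10 genes. In each list below 0 genes had an unadjusted p under 0.05 by the authors' test. In the supply list, 5 of 8 genes were above 0 (median 0.03). SLC25A1, the mitochondrial citrate carrier, was at 0.36, and IDH1, an NADPH-producing isocitrate dehydrogenase, at -0.62 (log2 fold change, implied SE 0.92) in the authors' deposited table. In the elongation cycle, 3 of 8 measured genes were above 0 (median -0.10). ELOVL3, an elongase of saturated very long chains, was put at 1.13 by the authors' deposited table (implied SE 2.02) at only 1.73 RPKM. The other elongation steps, from HSD17B12 to TECR, lay between -0.28 and 0.02. The other desaturases were SCD5 at -0.06, FADS3, next to FADS2 on chromosome 11, at 0.36 and DEGS1 at 0.19, and the electron carriers that serve desaturases were CYB5A, cytochrome b5, at -0.42 and CYB5R3, its reductase, at 0.24, all log2 fold changes of the authors' deposited table. Mitochondrial fatty acid synthesis, a separate pathway that feeds lipoic acid, had 6 of 9 genes above 0 (median 0.13). ACACB, the carboxylase isoform at mitochondria, was below 1 RPKM, while the authors' deposited table gave a log2 fold change of 0.17 for MID1IP1, which promotes malonyl-CoA production, and 0.20 for MLYCD, which removes malonyl-CoA.

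Among acyl-CoA synthetases, SLC27A4 was put at 0.73 by the authors' deposited table (log2 fold change, implied SE 0.98), while ACSL1, ACSL4 and ACSL5, relatives of ACSL3, lay between -0.04 and 0.18, so that 2 of the 4 measured were above 0. Of genes that use acyl-CoA to make glycerolipids, 11 of 12 were above 0 (median 0.18), with LPCAT1, a lysophospholipid acyltransferase, at 0.74 in the authors' deposited table (implied SE 0.88). Genes of fatty acid oxidation leaned the other way, with 5 of 18 above 0 and a median of -0.17. None of these 18 was 1.5-fold from 1, and the extremes were ACADS, short-chain acyl-CoA dehydrogenase, at -0.49 and ACADVL, the very long-chain enzyme, at 0.28 in the authors' deposited table. The difference between the synthesis and oxidation lists was not tested, since genes are not replicates.

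Regulators of SREBP processing were divided. INSIG1, which retains the SCAP and SREBP complex and is itself an SREBP target, was put at 0.65 by the authors' deposited table (log2 fold change, implied SE 0.93). Its homologue INSIG2 had -0.58 (implied SE 1.35), SCAP 0.03 and the proteases MBTPS1 and MBTPS2 -0.05 and -0.34 in the authors' deposited table. SREBF2, the paralogue of SREBF1, had 0.18 (37.9 RPKM), the same value to 2 decimals as SREBF1. SP1, which encodes a GC box factor, was put at -0.65 by the authors' deposited table (implied SE 0.95). Over the whole SREBP control list, which holds transcription factors beside the processing genes, 7 of 14 were above 0, with a median of -0.01. Of the 5 measured uptake and binding genes, 3 were above 0 (median 0.04). In the sterol synthesis list all 19 measured genes were above 0, 9 of them past 1.5-fold, and the median was 0.38. Among those named by rule, MVD was at 1.16, NSDHL at 0.71 and SQLE at 0.70 in the authors' deposited table. Of the fatty acid genes, FASN lay above these 3 and the next, ACACA, below them; the difference between the lists was not tested.

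**Figure D2:**
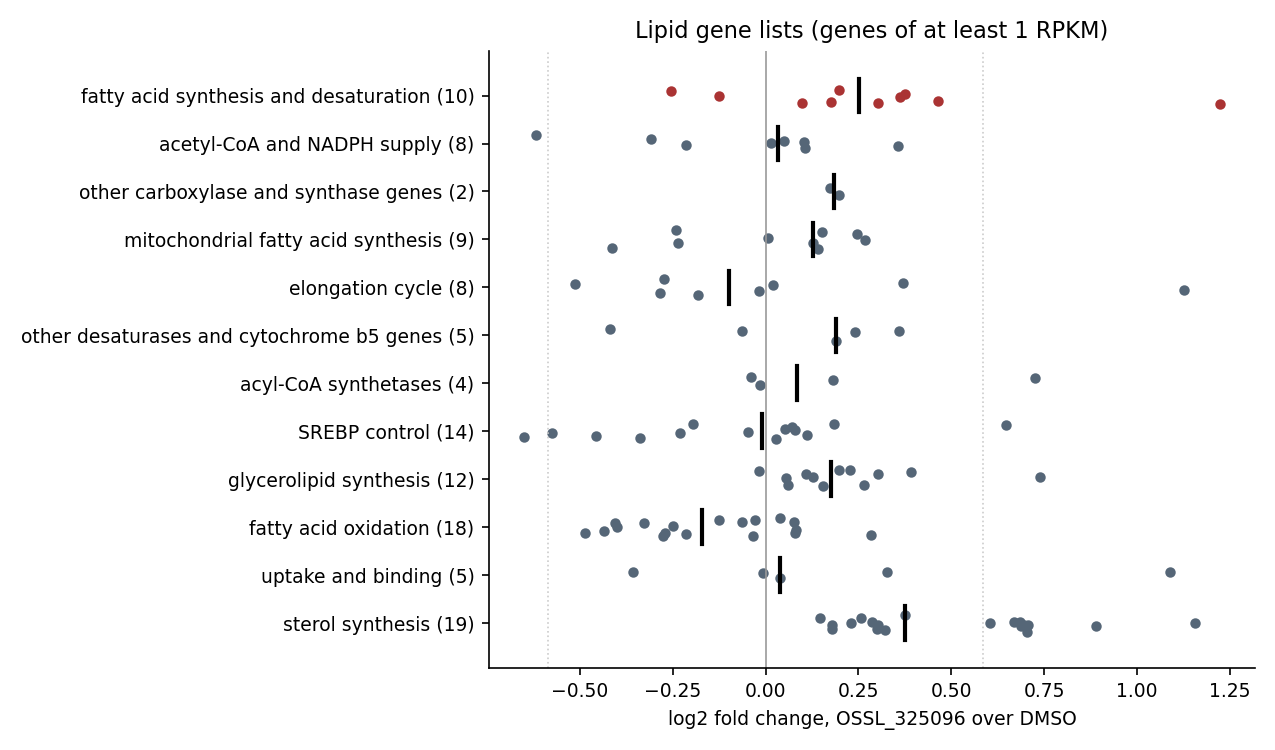
Log2 fold change of OSSL_325096 over DMSO for each gene of at least 1 RPKM in the fatty acid synthesis and desaturation set (red) and in 11 other lipid lists (grey-blue), with the number of genes in parentheses, black bars for medians and dotted lines at 1.5-fold. The set's median is 0.25, that of sterol synthesis 0.38 and that of fatty acid oxidation -0.17; points are spread vertically at random.

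Fold changes over the whole table followed the GC content of the transcripts, and the 10 genes differed widely in it. The median log2 fold change was -0.17 in the fifth of genes poorest in GC and 0.23 in the fifth richest in GC (Spearman correlation 0.47 across 11188 genes, which share the same 4 libraries). ACSL3 had 37.6% GC, below all but 2.86% of genes, and the lowest log2 fold change of the 10. FASN had 65.3% GC, above 96.6% of genes, and the highest. SREBF1, at 63.2%, was also GC-rich, whereas SCD and ACACA, at 46.5% and 48.4%, lay below the median gene (50.3%). Of the 378 genes at least as GC-rich as FASN, 50 (13.2%) were at least 1.5-fold higher, their median was 0.25, and 6, FASN included, had a log2 fold change at least as high as that of FASN.

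A regression on GC content, transcript length and expression took this trend out. FASN was then at 0.94, above 99.1% of genes, and remained the only fatty acid gene past 1.5-fold (1 of 10, against 3.43% of all genes). ACACA had 0.51 and SCD 0.38 after removal, nearly as deposited. FADS2 had 0.22, ACSS2 0.25 and ACLY 0.07. SREBF1 was at -0.08 and FADS1 at -0.02, so the sign of each depended on the trend. ELOVL6 and ACSL3 were at -0.0050 and -0.12. With the trend removed 6 of 10 fatty acid genes were above 0, against 5628 of all 11188 genes, and the median was 0.14. In sterol synthesis 18 of 19 genes were above 0, 6 were at least 1.5-fold higher, and the median was 0.45. Several other lists moved as well. The supply list had 1 of 8 genes above 0 (median -0.13), mitochondrial synthesis 4 of 9 (median -0.05) and SREBP control 4 of 14 (median -0.07). Glycerolipid synthesis had 8 of 12 above 0 (median 0.06), acyl-CoA synthetases 4 of 4 (median 0.18) and uptake and binding 3 of 5 (median 0.15). Fatty acid oxidation, with 4 of 18 above 0, kept a negative median of -0.14. The regression took the median transcript of each gene, which for FASN had 424 bases against 8464 for its longest, and for ACACA 772 against 10007. With the longest transcripts, chosen after seeing the data, FASN was at 0.91 and ACACA at 0.44. The part of GC content in these fold changes was not tested beyond removal of the trend.

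**Figure D3:**
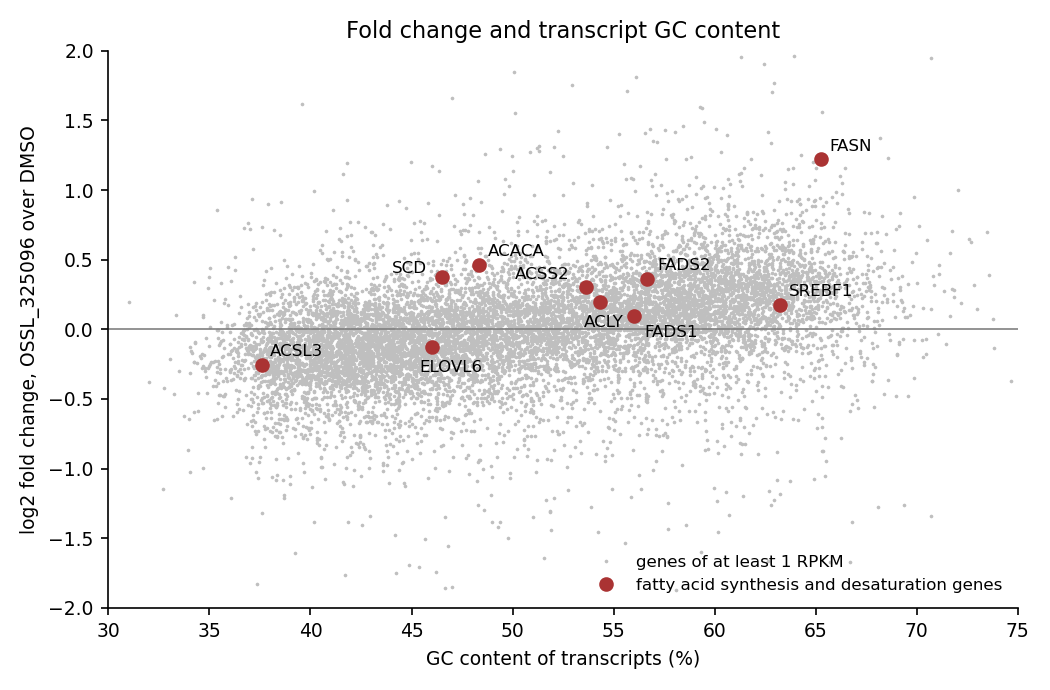
Log2 fold change of OSSL_325096 over DMSO (vertical) against GC content of transcripts in percent (horizontal) for genes of at least 1 RPKM (grey) and the 10 fatty acid genes (red); 23 genes lie outside the axes. FASN lies high among GC-rich genes, SREBF1 lies within their main cloud, and SCD and ACACA lie above most genes of like GC content.

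**Figure D4:**
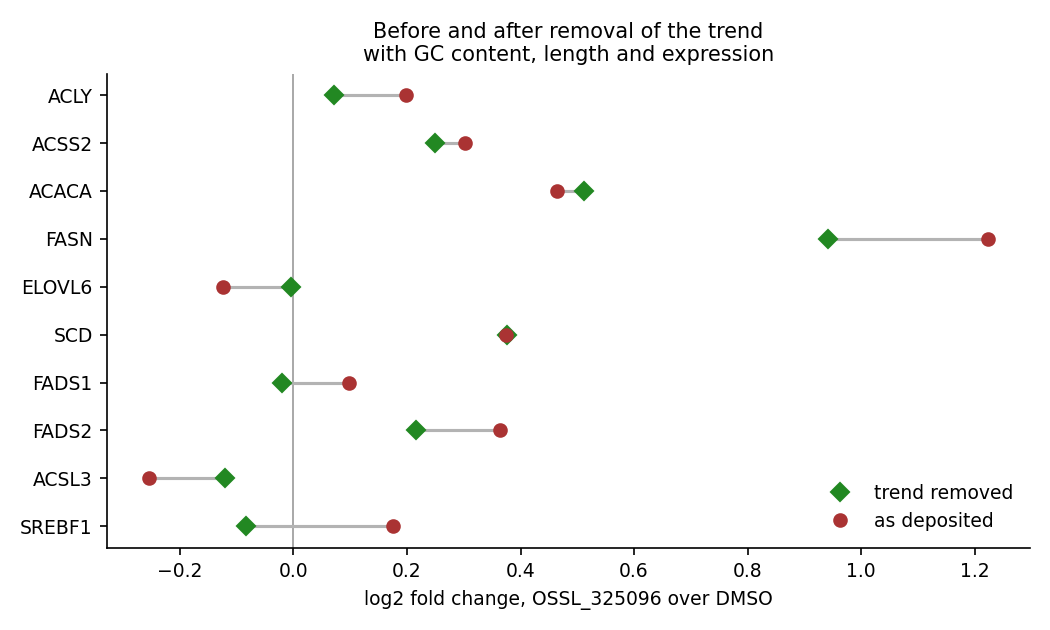
Log2 fold change of OSSL_325096 over DMSO as deposited (red circles) and after removal of the trend with transcript GC content, length and expression level (green diamonds) for the 10 genes. FASN is at 1.22 and 0.94, SREBF1 at 0.18 and -0.08.

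Several of the genes share a chromosome, and their surroundings were compared. SREBF1, ACACA, ACLY and FASN lie on chromosome 17, whose 723 measured genes had a median log2 fold change of 0.09, against 0.00 elsewhere. These genes had a median GC content of 55.2%, against 49.8% elsewhere, and with the trend removed their median was 0.02. The 4 nearest measured genes of FASN, 2 on each side, lay between 0.06 and 0.40, with CCDC57 at 0.32 and DUS1L at 0.40 in the authors' deposited table, below FASN at 1.22. Around SCD the 4 neighbours ranged from -0.33 to 0.13 and around ACACA from -0.27 to 0.67. ACSL3 lay inside the range of its neighbours, from -1.04 to 0.05. Over the 37 neighbours of the 10 genes the median was 0.05. RAI1, which overlaps SREBF1 by 1055 bases on the other strand, had 0.35 at 9.93 RPKM, GGT7, which overlaps ACSS2 by 715 bases, had 0.12, and FEN1, which overlaps FADS2 by 4265 bases on the same strand, had -0.08 at 50.9 RPKM in the authors' deposited table. Reads in these overlaps may have been assigned to either gene.

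**Figure D5:**
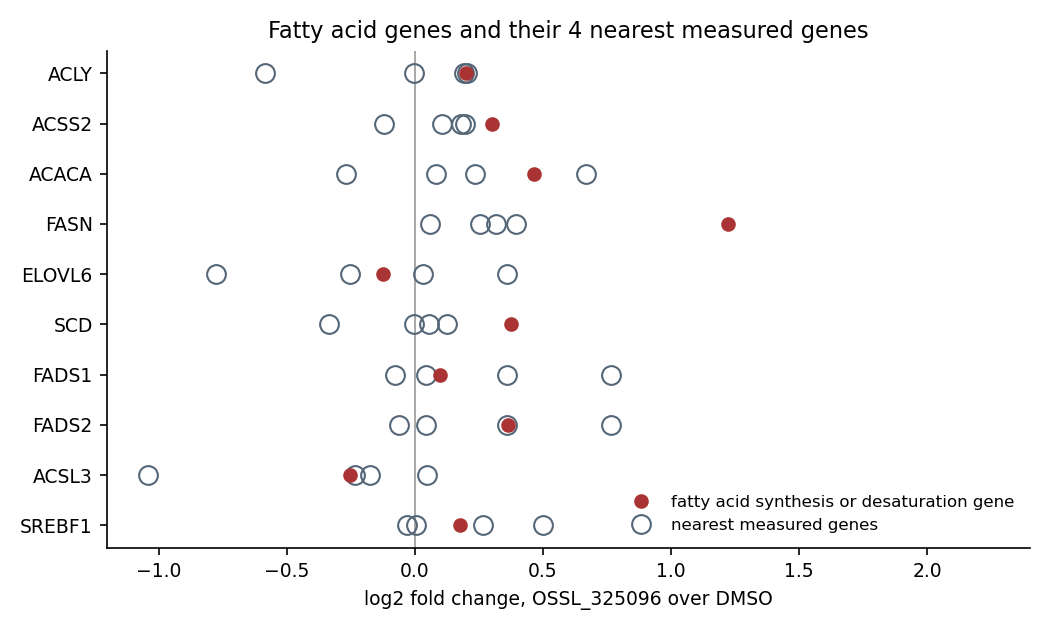
Log2 fold change of OSSL_325096 over DMSO for the 10 fatty acid genes (red) and the 4 nearest non-overlapping genes of at least 1 RPKM of each (open circles). FASN, at 1.22, lies above its neighbours, which range from 0.06 to 0.40.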

How the data were processed

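Per the labels' protocols, libraries were made from poly(A)-selected, fragmented mRNA with random priming. Per the design text of the series, reads were mapped to hg19 and RPKM values and the comparison were made by the authors in Biomedical Genomics Workbench 5. No counting rule, use of strand, gene annotation or test is stated there. The RPKM column, as deposited, averages the libraries of the treatment with more. The log2 of the signed fold score deposited by the authors equals the deposited log2 fold change to within 5.5e-06. The deposited p-value columns hold unadjusted, false discovery rate and Bonferroni values; the deposited false discovery rate was 0.999995 for each of the 23130 genes with a fold change. The table has 6 columns of values and 0 of single libraries, so depth is unknown and no counting interval is given. The labels do not state how many cultures were used, and the lines are the only replicates of a treatment. The p-values rest on these libraries alone, and because the test is not stated, which spread they measure is not known.

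Genes of at least 1 RPKM were kept and Benjamini-Hochberg values recomputed. The implied SE is the absolute log2 fold change over the normal quantile of its p. GC content and length were taken as the median transcript of each gene in GENCODE 44 on GRCh37, matched by identifier or by symbol and position for 98.8% of genes kept; regression terms went to degree 3 and explained 15.5% of the variance. Trend removal and adjustment were tested on simulated data with a trend in GC content only and errors smaller than the implied SEs here. How they perform at the errors of these data was not tested. Python 3.11.15, pandas 2.3.3, numpy 2.4.6 and scipy 1.17.1 were used. Planned fits of single libraries could not be made, and the authors' test took their place. The 10 genes, 19 further lists and tests were chosen with earlier results of these data known. Named genes are the 10, and of each lipid list up to 4 genes at least 1.5-fold from 1; any others were named with their values in view, and some genes are not reported here. Alternatives were other minima and folds, centring, trend removal and leaving out FASN.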

Additional observations from a re-analysis of the deposited data

How the results depend on the processing

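FASN was the only fatty acid gene at least 1.5-fold higher with no minimum on RPKM, with a minimum of 5 RPKM, after centring on the median of all genes, with the trend removed and at a fold of 2. At the lower fold tried the count was 4, with ACACA (1.38-fold), SCD (1.30-fold) and FADS2 (1.29-fold) beside FASN. The shares of all genes past that lower fold and past a fold of 2 were not computed, so these counts cannot be judged against all genes. The count above 0 was 8 of 10 as deposited, with no minimum and after centring, and 6 of 10 with the trend removed. It was 7 with a minimum of 5 RPKM, which ACSS2 and ELOVL6 did not reach. Without FASN it was 7 of 9. The median log2 fold change of 0.25 was 0.28 at a minimum of 5 RPKM, 0.24 after centring, 0.14 with the trend removed and, with the longest transcript of each gene used for that trend (chosen after seeing the data), 0.10. With the trend removed the signs of FADS1 (-0.0203) and SREBF1 (-0.0836) turned; with the longest transcript those of ELOVL6 (0.0226) and SREBF1 (-0.12) turned, and FADS1 was at 0.07. None of these genes had an adjusted p under 0.05 with no minimum, with a minimum of 5 RPKM or by the deposited false discovery rate; centring, trend removal and other folds carry no p-value. No paired analysis was possible because the table holds no values of single libraries; for the same reason fits that leave out a cell line were not run. Depth is unknown, and at the median implied SE a 4.45-fold difference was needed for an unadjusted p of 0.05.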
